A study of Mus musculus with 8 samples.

Results

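The cytosolic ribosomal protein genes encode the proteins of both ribosomal subunits, and their transcripts were compared in bleomycin-injured lung of wild-type and Slc15a3 knockout mice. Members were the genes of the count table whose symbol begins with Rpl, Rps or Rplp followed by a digit, without the Rps6k kinases and without symbols marked as pseudogenes. The rule found 88 of 18824 genes, 54 named for the large subunit and 34 for the small. Of these, 76 encode core ribosomal proteins (46 large, 30 small), and 12 are paralogs, retrogenes or, in the case of Rps19bp1, a protein that binds Rps19. A filter on low counts left 84 members for testing, 51 large and 33 small. Rpl32l, Rpl39l, Rpl3l and Rps23rg1 had 1 to 11 counts per library and were not tested.

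The groups, WT_BLM and KO_BLM, held 4 lung RNA sequencing libraries each. WT_BLM mice were wild type and KO_BLM mice were Slc15a3-/-, lacking the gene of a lysosomal transporter of histidine and small peptides that is also called PHT2. Bleomycin, a DNA-damaging drug used to model lung fibrosis, was given into the trachea of 8-week-old animals of both groups (2 mg/kg, volume 50 µl, carried in saline) at day 0, and lungs were taken at day 21. Control animals given saline are not analysed here. All values below are therefore of injured lung, and the labels give no strain, sex, promoter or Cre for the knockout. Nothing in the labels says that each library is a separate mouse, so the p-values measure only the spread between these libraries, which may be technical.

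The WT_BLM libraries held 18878835 to 20180831 counts and the KO_BLM libraries 17627999 to 18471445. Slc15a3 had 935, 1124, 974 and 841 counts in WT_BLM and 8, 5, 18 and 15 in KO_BLM (log2 fold change -6.36, SE 0.23, edgeR adjusted p = 9.36e-07), which goes with the labels. All 5 lung epithelium markers were present in all 8 libraries. Over all 14746 tested genes, 3057 were higher and 3061 lower in KO_BLM at an adjusted p under 0.05, which is 41.5% of genes, so any set of genes will hold many calls. The groups also differed widely in cell type markers, as given beside the results.

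A ribosome is built from ribosomal RNA and mostly a single copy of each of these proteins, so cells make the proteins in matched amounts. In mammals, ribosomal protein mRNAs belong to the TOP class, whose transcripts begin with a run of pyrimidines that lets mTOR signalling and the binding protein Larp1 set their translation together. Transcription of the genes is known to follow growth-promoting transcription factors such as Myc, and unassembled proteins are degraded. Ribosomal protein genes also have many processed pseudogenes in the genome, which makes short reads from them hard to place.

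Pyrimidine runs near the annotated start sites were searched for in the promoters. Those of 67 of 88 members, among them 56 of the 76 core genes, were matched by symbol to RefSeq windows of the build GRCm38.p6, which hold 250 bases before and 50 bases after each start. The following 30-base windows, 5′ to 3′ on the gene's strand, hold the longest pyrimidine run near the start in capitals. They are shown as examples with large, middling and near-zero fold changes, together with the Rpl36a and Rpl36al pair and the paralog Rpl22l1, and were picked after the values were seen, by no fixed rule.
Rps2 (chr17:24720078-24720107, + strand): actataaattgTCCCTTCCgcggcgcctcc
Rps6 (chr4:86857349-86857378, - strand): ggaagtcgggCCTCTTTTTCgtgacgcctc
Rps12 (chr10:23787182-23787211, - strand): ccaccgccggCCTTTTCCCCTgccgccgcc
Rps18 (chr17:33955648-33955677, - strand): gtcacttccgCTCTCTCTTCCacaggaggc
Rpl15 (chr14:18270968-18270997, - strand): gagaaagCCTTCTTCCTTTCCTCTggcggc
Rpl35 (chr2:39005115-39005144, - strand): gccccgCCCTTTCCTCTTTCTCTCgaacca
Rpl36a (chrX:134585672-134585701, + strand): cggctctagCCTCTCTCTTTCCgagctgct
Rpl36al (chr12:69184020-69184049, - strand): gctctgttcgTCCCTTTCCTgttcggcgcg
Rpl22l1 (chr3:28805499-28805528, + strand): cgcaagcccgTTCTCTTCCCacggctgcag
Rps15 (chr10:80292446-80292475, + strand): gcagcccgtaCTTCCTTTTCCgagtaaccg
Rps21 (chr2:180257403-180257432, + strand): gcacgagctaCTTCCTTTCTgcgctctcgc
In these windows the runs are 8 to 18 bases of C and T. Counting the annotated start as base 1, they begin at base 27 in Rps2, 9 in Rps12, 28 in Rpl36a, 29 in Rpl36al, 2 in Rpl22l1 and 26 in Rps15. They begin before the start in Rps6 (-1), Rps18 (-2), Rpl15 (-4), Rpl35 (-7) and Rps21 (-36, where the run also ends before the start). A gene can have several annotated starts, and the start whose window held the longest run was used. For Rps2, Rps12 and Rps21 that start lies inside the annotated gene. The Rps21 run, though before the start used, is thus within the gene (chr2:180257379-180258444). A run placed away from the annotated start is not shown to be the first bases of the transcript. Such a run (at least 8 bases of only C or T on the gene's strand, within 40 bases of the start) stood in 48 of 66 start windows of core genes (72.7%), and in 9620 of 32851 start windows of all genes (29.3%). By how the genes moved, it was present in 30 of 40 core genes that fell (75%) and in 14 of 16 that were not called (87.5%). Rps15 and Rps21, with fold changes near 0, carry runs of 11 and 10 bases, and Rps2, which fell most, carries one of 8. Among other motifs searched on both strands of the 300 bases, CCGGAAG (an ETS-type site) was in 36.4% of core windows and 8.86% of all, AAGATGGC (a YY1-type site) in 10.6% and 2.75%, CACGTG (an E-box) in 12.1% and 7.15%, and TATAAA in 9.09% and 13.6%. The run length, window and motifs were chosen after looking at the data, and the shares are a description with no test.

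Ribosomal protein transcripts were lower in the knockout lungs, for most members by a modest amount. Of the 84 tested members, 55 were lower in KO_BLM and 0 were higher at an edgeR adjusted p under 0.05, against 20.8% of all tested genes called lower and 20.7% called higher. By limma with quality weights 65 were lower and by DESeq2 67, again with 0 higher. Of all tested genes, 3853 were lower by limma and 3431 by DESeq2, against 3061 by edgeR. The median log2 fold change was -0.29, a fall of 18.1%, where that of all genes was 0.00, and 81 of the 84 had a value below 0. The SD of the members' fold changes was 0.15, and they ran from -0.66 (SE 0.09) for Rps2 to 0.05 (SE 0.07) for Rpl22. In 59 of the 84, every KO_BLM library was below every WT_BLM library, where 20.7% of all genes showed that pattern. No member had every KO_BLM library above every WT_BLM library, a pattern of 20.3% of all genes. The number of calls rests in part on 1 library and on the scaling. Without KO_BLM replicate 2 it was 27, and with library totals in place of TMM factors it was 30, with 0 higher in both. Of all tested genes, 2178 were lower without KO_BLM replicate 2 and 2253 with library totals. With library totals, the share of all calls that were higher also moved, from 50.0% to 62.7%.

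**Figure D1:**
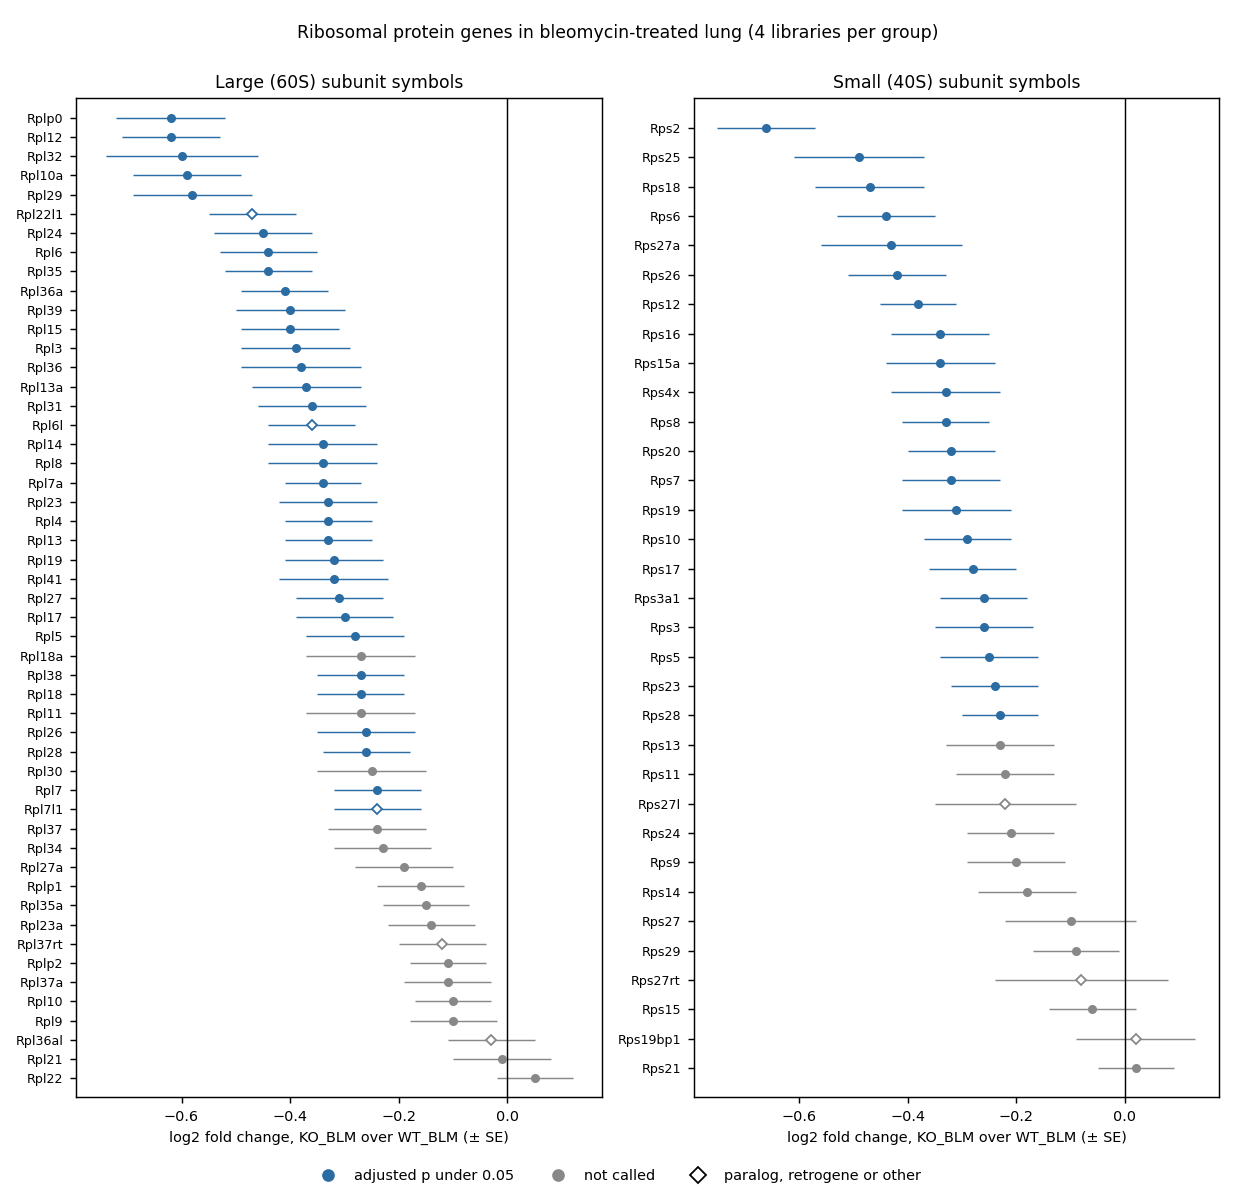
Log2 fold change of each tested member, KO_BLM over WT_BLM, with its standard error as a bar, for large subunit symbols (left) and small subunit symbols (right), 4 libraries per group. Blue marks members called lower, grey those not called, and open diamonds the paralogs, retrogenes and Rps19bp1; 81 of 84 members lie left of 0, from -0.66 for Rps2 to 0.05 for Rpl22.

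Both subunits took part. Of the large subunit symbols 34 of 51 fell (66.7%), with a median log2 fold change of -0.31. Of the small subunit symbols 21 of 33 fell (63.6%), with a median of -0.26. Of all tested genes 20.8% fell. Without KO_BLM replicate 2 these counts were 18 and 9, and the medians -0.28 and -0.25. Among the core proteins alone, 31 of 46 large and 21 of 30 small subunit genes fell, and 55 of the 76 lay within 0.15 of the median of all members. Of the 24 core genes not called, 19 overlapped and 5 had every KO_BLM library below every WT_BLM library. Of all tested genes, called or not, 20.7% showed the latter pattern.

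The knockout lungs also differed from wild type in marker genes of several cell types. Summed markers of activated fibroblasts, which make much matrix protein, were at 10621 to 12743 CPM in WT_BLM and 2613 to 3366 CPM in KO_BLM, with 8 of 8 lower. Macrophage markers were at 6039 to 8727 and 1030 to 2991 CPM, with 9 of 10 lower, and markers of dividing cells at 98.9 to 236 and 82.1 to 123 CPM, with 6 of 10 lower. Type 2 alveolar cell markers went the other way, at 9149 to 13450 and 23535 to 36216 CPM, with 9 of 10 higher. Ciliated cell markers were at 149 to 225 and 484 to 620 CPM, with 8 of 8 higher, and endothelial markers at 2602 to 3270 and 2725 to 4131 CPM, with 5 of 8 higher and 1 lower. Type 1 alveolar cell markers were at 6391 to 8565 and 7659 to 8342 CPM, with 3 of 8 higher. B cell markers rose from a range of 53.2 to 154 CPM to one of 256 to 406 CPM (10 of 10 higher), T cell markers from 40.9 to 88.7 to 127 to 224 CPM (8 of 10), and markers of natural killer and cytotoxic cells from 10.6 to 34.0 to 79.3 to 152 CPM (10 of 10). No marker of these lists was at 0 in all libraries. Their part in the fall of ribosomal protein transcripts was not tested, and in bulk tissue fewer cells of a type and less RNA per cell cannot be told apart.

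The family's summed level was lower in KO_BLM, and whether the groups overlapped depended on the scaling. In replicate order, members took 3.08%, 3.43%, 3.46% and 3.54% of the WT_BLM counts, and 2.77%, 2.75%, 3.15% and 2.88% of the KO_BLM counts. KO_BLM replicate 3 was above WT_BLM replicate 1, so the groups overlap on this scale of library totals. The means were 3.38 ± 0.203% and 2.89 ± 0.185% (SD, n = 4), so the share fell by 14.4%. The large subunit went from 2.05 ± 0.121% to 1.74 ± 0.115% and the small from 1.33 ± 0.0824% to 1.16 ± 0.0705%. Scaled by TMM, the summed level of all members was 34828 ± 2343 CPM in WT_BLM and 28049 ± 1574 CPM in KO_BLM. On this scale, which the single genes share, the groups did not overlap, at 32178 to 37851 CPM in WT_BLM and 27083 to 30374 CPM in KO_BLM. The ratio of large to small subunit counts shifted a little and without overlap, from 1.547, 1.526, 1.536 and 1.541 in WT_BLM to 1.501, 1.503, 1.517 and 1.487 in KO_BLM, a fall of 2.29% in the mean. It depends on the lengths of the genes and on which members were counted, so it is not a ratio of subunits.

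**Figure D2:**
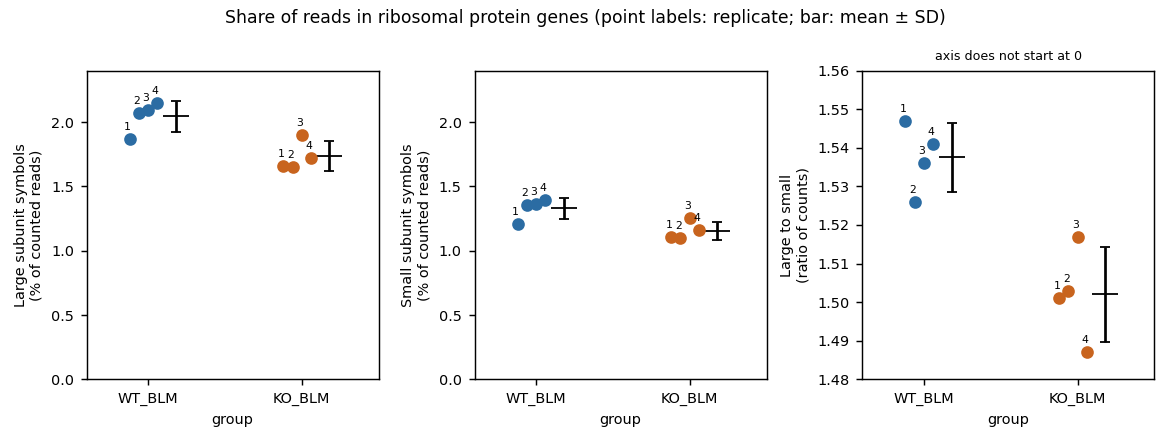
Percent of all counted reads in large subunit symbols (left) and small subunit symbols (middle) and the ratio of both (right), 1 point per library numbered by replicate, with mean ± SD beside them (n = 4). The shares of the groups overlap through KO_BLM replicate 3 and WT_BLM replicate 1, while the ratio is at 1.526 or more in WT_BLM and at 1.517 or less in KO_BLM; the axis of the ratio does not start at 0.

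In the large subunit, 2 of the 4 genes of the stalk at the factor-binding site fell. Among all core genes the share was 68.4%, and among all tested genes 20.8%. Rplp0, the scaffold of the stalk, was at 1434, 1460, 1563 and 1681 CPM in WT_BLM and 971, 953, 1115 and 954 CPM in KO_BLM. It fell by 34.9% (log2 fold change -0.62, SE 0.10, edgeR adjusted p = 0.00103). All 4 KO_BLM libraries were below all of WT_BLM. Rpl12, which sits at the base of the stalk beside Rplp0, was at 417, 465, 457 and 513 CPM in WT_BLM and 286, 284, 336 and 296 CPM in KO_BLM. It fell by 35.1% (log2 fold change -0.62, SE 0.09, edgeR adjusted p = 0.000936), again with no overlap. Rplp1 and Rplp2, the small acidic proteins that Rplp0 carries and that recruit elongation factors, did not pass the test. Rplp1 was at 746, 794, 804 and 781 CPM in WT_BLM and 709.6, 671, 738 and 680 CPM in KO_BLM (log2 fold change -0.16, SE 0.08, edgeR adjusted p = 0.123), lower in every KO_BLM library than in any of WT_BLM but by little. Rplp2 had a log2 fold change of -0.11 (edgeR adjusted p = 0.27). The difference in response between these proteins was not tested.

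Other large subunit genes with big falls encode proteins from separate places on the particle. Rpl10a, part of the mobile arm that guides spent tRNA out of the ribosome, was at 485, 491, 516 and 589.9 CPM in WT_BLM and 329, 335, 388 and 336 CPM in KO_BLM (log2 fold change -0.59, SE 0.10, edgeR adjusted p = 0.00138). Rpl32 was at 364, 386, 403 and 520.4 CPM in WT_BLM and 255, 259.7, 335 and 253 CPM in KO_BLM (log2 fold change -0.60, SE 0.14, edgeR adjusted p = 0.00701). Both had every KO_BLM library below every WT_BLM library, with KO_BLM replicate 3 the highest of its group. Rpl29, known also as a heparin-binding protein, was at 284, 291, 305 and 351 CPM in WT_BLM and 199.9, 192, 242 and 192 CPM in KO_BLM (log2 fold change -0.58, SE 0.11, edgeR adjusted p = 0.00249). Rpl24, which forms a bridge to the small subunit, fell by 27% and Rpl3, which lines the catalytic centre, by 23.8% (edgeR adjusted p = 0.00301 and 0.014). Rpl13a, also known for a role in silencing inflammatory mRNAs after interferon, fell by 22.5% and Rpl38, known for a part in skeletal patterning, by 16.9% (edgeR adjusted p = 0.0172 and 0.0191). Rpl41, a very short peptide at the interface of the subunits, fell by 19.7% (edgeR adjusted p = 0.0235). The calls for Rpl13a, Rpl38 and Rpl41 were lost without KO_BLM replicate 2 (edgeR adjusted p = 0.0564, 0.0728 and 0.0835), and that for Rpl41 also without WT_BLM replicate 3 or KO_BLM replicate 1 (0.056 and 0.0625). Rpl10, a late-joining protein next to the catalytic centre, was at 568, 596, 607 and 610.3 CPM in WT_BLM and 563, 560.3, 560 and 531 CPM in KO_BLM and did not pass (log2 fold change -0.10, SE 0.07, edgeR adjusted p = 0.275).

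Among genes for proteins of the tunnel through which the new protein leaves, or of its exit, 7 of 9 fell (77.8%). Their median log2 fold change was -0.32. This was close to the family as a whole: of all core genes 68.4% fell, with a median of -0.31. Of all tested genes 20.8% fell. Rpl35, which stands at the tunnel exit, was at 399, 411, 436 and 457 CPM in WT_BLM and 296, 298, 331 and 328 CPM in KO_BLM (log2 fold change -0.44, SE 0.08, edgeR adjusted p = 0.00266), with no overlap. Rpl39, a small protein of the tunnel wall, fell by 24%, Rpl31 by 21.9%, Rpl4 by 20.6%, Rpl19 by 20%, Rpl17 by 18.9% and Rpl26 by 16.2%. Rpl23a, a docking site for factors that meet the new chain, had a log2 fold change of -0.14 (edgeR adjusted p = 0.154), and Rpl22 is described below. With library totals, 4 of the 9 were called lower, where 2253 of all tested genes were. Without KO_BLM replicate 2 the calls for Rpl31, Rpl19, Rpl17 and Rpl26 were lost (edgeR adjusted p = 0.0586, 0.0753, 0.0821 and 0.144), that for Rpl17 also without WT_BLM replicate 3 or KO_BLM replicate 1 (0.0514 and 0.0591), and that for Rpl26 without any library but WT_BLM replicate 1 and KO_BLM replicate 3 (0.0558 to 0.144).

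Rpl5 and Rpl11 bind the small RNA of the large subunit and, when free, bind the p53 regulator Mdm2. Their fold changes were close, but Rpl5 passed the threshold and Rpl11 did not. Rpl5 was at 444, 505, 479 and 557 CPM in WT_BLM and 413, 398, 440.1 and 386 CPM in KO_BLM (log2 fold change -0.28, SE 0.09, edgeR adjusted p = 0.0344). Rpl11 was at 360.3, 382, 391 and 442 CPM in WT_BLM and 326, 313, 373 and 298 CPM in KO_BLM (log2 fold change -0.27, SE 0.10, edgeR adjusted p = 0.0537). Rpl5 groups did not overlap, Rpl11 groups did. With library totals neither was called. Without any 1 of WT_BLM replicates 2, 3 and 4 and KO_BLM replicates 1, 2 and 4 the call for Rpl5 was lost (edgeR adjusted p 0.0526 to 0.0978), and without KO_BLM replicate 3 Rpl11 passed (0.0276). Mdm2 itself had a log2 fold change of -0.24 (edgeR adjusted p = 0.152).

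In the small subunit, Rps2 showed the largest fall of all members under edgeR. Rps2 stands at the entry of the mRNA channel (gene at chr17:24718121-24721927, GRCm38.p6). It was at 640.2, 707, 681 and 714 CPM in WT_BLM and 423, 419, 488 and 404 CPM in KO_BLM. The fall was 36.7% (log2 fold change -0.66, SE 0.09, edgeR adjusted p = 0.000509). All KO_BLM libraries were below all WT_BLM libraries. Of the other genes at mRNA entry and decoding, Rps3 fell by 16.7% and Rps23 by 15.4% (edgeR adjusted p = 0.0375 and 0.0399). Rps3 was called although its groups overlap, at 551, 629.6, 629 and 665 CPM in WT_BLM and 499, 516, 558 and 489 CPM in KO_BLM. Both calls were lost without any 1 of WT_BLM replicates 2 and 4 and KO_BLM replicates 1, 2 and 4 (edgeR adjusted p 0.0719 to 0.119), that for Rps3 also without WT_BLM replicate 3 (0.077) and that for Rps23 without WT_BLM replicate 1 (0.0514). Rps15, which reaches the decoding site from the head of the subunit, was at 539, 587, 571 and 591 CPM in WT_BLM and 583, 515, 569 and 531 CPM in KO_BLM and was not called (log2 fold change -0.06, SE 0.08, edgeR adjusted p = 0.589). Its sign turned to 0.03 with library totals, so no direction is given for it.

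Other genes with big falls in the small subunit encode proteins of its head, body and platform. Rps25, a protein of the head, was at 326, 337, 342 and 461 CPM in WT_BLM and 256, 248, 292 and 248 CPM in KO_BLM (log2 fold change -0.49, SE 0.12, edgeR adjusted p = 0.0108). WT_BLM replicate 4 stood above the other wild-type libraries. Rps18, which touches the large subunit from the head, was at 386, 407, 416 and 463 CPM in WT_BLM and 288, 275, 342 and 298 CPM in KO_BLM (log2 fold change -0.47, SE 0.10, edgeR adjusted p = 0.00394). Neither overlapped between groups. Rps6, the body protein that S6 kinases phosphorylate, was at 612, 704, 662 and 735 CPM in WT_BLM and 500.3, 496, 539.9 and 468 CPM in KO_BLM (log2 fold change -0.44, SE 0.09, edgeR adjusted p = 0.0042), with no overlap either. Rps26, near the exit of the mRNA channel, fell by 25% (edgeR adjusted p = 0.00666).

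The genes of the beak of the small subunit and its ubiquitin fusion fell, 3 of 3, with a median log2 fold change of -0.38. Of all core genes 68.4% fell, with a median of -0.31, and of all tested genes 20.8% fell. With library totals 1 of the 3 was called lower, where 2253 of all tested genes were. Rps12 was at 354, 366, 374 and 380.4 CPM in WT_BLM and 288, 266, 294 and 287 CPM in KO_BLM (log2 fold change -0.38, SE 0.07, edgeR adjusted p = 0.00335). Rps10 fell by 18.3% (edgeR adjusted p = 0.0181). Rps27a, which is made as a fusion with ubiquitin, was at 273, 282, 278 and 308 CPM in WT_BLM and 235, 158, 209 and 244 CPM in KO_BLM (log2 fold change -0.43, SE 0.13, edgeR adjusted p = 0.0236). Its KO_BLM replicate 2 was the lowest, and the knockout libraries spread more widely than those of Rps12. The call for Rps27a was lost without KO_BLM replicate 3 (edgeR adjusted p = 0.0551) and that for Rps10 without KO_BLM replicate 2 (0.0602).

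Genes mutated in Diamond-Blackfan anaemia, a human disease of ribosomal protein shortage in red cell precursors, were lower too. Of 18 such genes, all of them members counted above, 13 fell (72.2%) and 0 rose, with a median log2 fold change of -0.28. Of all core genes 68.4% fell, with a median of -0.31, and of all tested genes 20.8% fell. With library totals 4 were called lower, where 2253 of all 14746 tested genes were. Rps19, the gene most often affected, fell by 19.5% (edgeR adjusted p = 0.0268), and Rpl35, Rps26 and Rpl15 fell by 26.5%, 25% and 24.4%. Rps24, Rps27, Rps29, Rpl11 and Rpl35a did not pass. Red cell markers were at 965 to 1468 CPM in WT_BLM and 1469 to 2846 CPM in KO_BLM, with 6 of 7 higher. Their relation to these genes was not tested. The call for Rps19 was lost without any 1 of WT_BLM replicate 3 and KO_BLM replicates 1, 2 and 4 (edgeR adjusted p 0.0503 to 0.0696).

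Within each group the members moved together from library to library. WT_BLM replicate 1 was the lowest of its group for 77 of 84 members and WT_BLM replicate 4 the highest for 65. KO_BLM replicate 3 was the highest of its group for 70. KO_BLM replicates 4, 2 and 1 were the lowest for 35, 31 and 17. Summed macrophage markers in KO_BLM replicates 1 to 4 were 1034, 1030, 2861 and 2991 CPM, and summed heart muscle markers 31.2, 41.0, 154 and 199 CPM, both highest in replicate 4. Replicate 3 was the highest KO_BLM library in the sums of B cell (406 CPM), T cell (224 CPM), natural killer and cytotoxic cell (152 CPM), activated fibroblast (3366 CPM) and type 1 alveolar cell (8342 CPM) markers. Type 2 alveolar, endothelial and red cell sums were highest in KO_BLM replicate 1, at 36216, 4131 and 2846 CPM. The ciliated cell sum was highest in KO_BLM replicate 2 (620 CPM) and that of dividing cells in replicate 4 (123 CPM). WT_BLM replicate 4 was highest of its group in macrophage, type 2 and type 1 alveolar sums. It was lowest in B cell, natural killer and cytotoxic, ciliated, endothelial, activated fibroblast and dividing cell sums. The part of these cell types in the shared movement was not tested. Shared movement of this kind means that the members are not independent of each other, and a count of members called is not a count of separate observations.

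**Figure D3:**
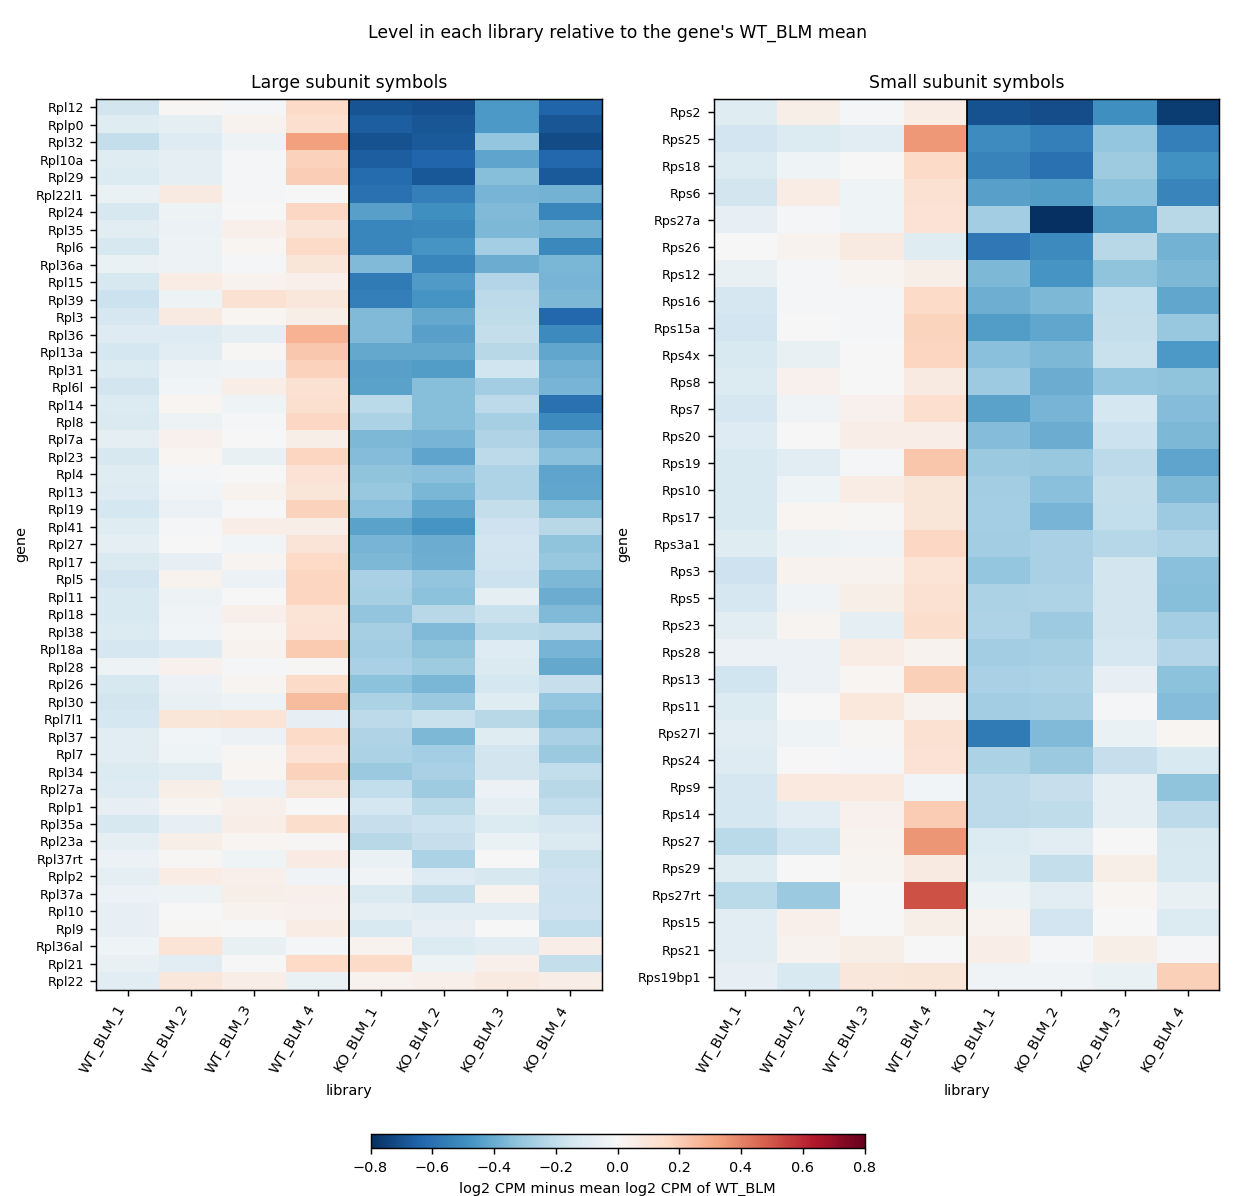
Log2 CPM of each tested member in each library minus the mean log2 CPM of WT_BLM, large subunit left and small subunit right, ordered by fold change (colour scale at the foot, values past its ends share the end colour). KO_BLM columns are mostly blue, KO_BLM replicate 3 is the palest of them, and WT_BLM replicate 4 is the warmest of the wild type.

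A few core genes had fold changes near 0 and were not called. Rpl22, an RNA-binding protein of the large subunit's surface, was at 169, 192, 186 and 173 CPM in WT_BLM and 184, 185, 189 and 187 CPM in KO_BLM (log2 fold change 0.05, SE 0.07, edgeR adjusted p = 0.629). Rpl21 was at 115, 112, 119.5 and 134 CPM in WT_BLM and 133, 116, 123 and 105 CPM in KO_BLM (log2 fold change -0.01, SE 0.09, edgeR adjusted p = 0.953). Rps21 was at 186, 201, 203 and 197 CPM in WT_BLM and 204, 194, 203 and 195 CPM in KO_BLM (log2 fold change 0.02, SE 0.07, edgeR adjusted p = 0.859). In all 3 the groups overlap, and the sign for Rpl21 turns to 0.08 with library totals. Rps29, Rpl9, Rps27 and Rpl10 had log2 fold changes of -0.09, -0.10, -0.10 and -0.10, none of them called. For Rps27, WT_BLM replicate 4 was the highest, at 261, 271, 308 and 387 CPM in WT_BLM and 281, 284, 303 and 277 CPM in KO_BLM.

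Of 4 paralogs compared with their parents, none had a ratio that passed 0.05 after adjustment, and 2 had ratios that did not overlap between the groups. Rpl22l1, a like protein that can take the place of Rpl22, fell while Rpl22 did not pass the test: it was at 61.7, 67.2, 63.4 and 64.3 CPM in WT_BLM and 42.3, 43.8, 49.6 and 49.3 CPM in KO_BLM (log2 fold change -0.47, SE 0.08, edgeR adjusted p = 0.00166), with no overlap. Per length of gene, Rpl22l1 stood at 175%, 168%, 163% and 178% of Rpl22 in WT_BLM and at 110%, 114%, 126% and 126% in KO_BLM. The log2 ratio changed by -0.52 (two-sided exact permutation test, p = 0.0286, which is the smallest p 4 against 4 libraries allow, and 0.0571 after adjustment over 4 pairs). Rpl36al, a paralog of Rpl36a, had a ratio that was higher in KO_BLM. Rpl36a was at 145, 147, 150.1 and 162 CPM in WT_BLM and 118, 105, 115 and 117 CPM in KO_BLM (log2 fold change -0.41, SE 0.08, edgeR adjusted p = 0.00247). Rpl36al was at 76.1, 84, 74.8 and 77.3 CPM in WT_BLM and 79.4, 72.2, 73.3 and 80.9 CPM in KO_BLM (log2 fold change -0.03, SE 0.08, edgeR adjusted p = 0.781). Relative to its parent, Rpl36al was at 49.5%, 54.1%, 47.1% and 45.3% in WT_BLM and at 63.6%, 65.1%, 60.5% and 65.3% in KO_BLM (log2 difference 0.38, exact permutation p = 0.0286, adjusted 0.0571). Only 14.5% of the 50-base stretches of Rpl36a are found in no other gene's transcripts, so reads of this pair may be split. For Rpl22l1 this share is 42.7% and for Rpl22 94.8%, so reads of Rpl22l1 may be split as well.

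The other paralogs were low or uncertain. Rpl7l1 fell with Rpl7 (-0.24 and -0.24 on the log2 scale, edgeR adjusted p = 0.0403 and 0.0382), and their log2 ratio changed by 0.00 (exact permutation p = 0.971), at 3.82% to 4.76% of the parent in all libraries. Both calls were lost without any 1 of WT_BLM replicates 2 and 3 and KO_BLM replicates 1, 2 and 4 (edgeR adjusted p 0.0564 to 0.107), that for Rpl7 also without WT_BLM replicate 4 (0.0724) and that for Rpl7l1 without KO_BLM replicate 3 (0.0648). Rps27l, a p53-responsive copy of Rps27, was at 85.4, 88.8, 91.6 and 99.2 CPM in WT_BLM and 61.5, 71.2, 88 and 92.2 CPM in KO_BLM (log2 fold change -0.22, SE 0.13, edgeR adjusted p = 0.181). Relative to Rps27 the log2 ratio changed by -0.16 (exact permutation p = 0.286, adjusted 0.381). Rpl6l, which shares most of its sequence with Rpl6, was called lower at -0.36, and Rpl37rt and Rps27rt, retrogenes, were not called at -0.12 and -0.08. Only 23.6% of Rpl6l and 8.92% of Rps27rt is unique, so their counts are uncertain. Rps19bp1, which is not part of the ribosome, had 0.02 (edgeR adjusted p = 0.898).

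**Figure D4:**
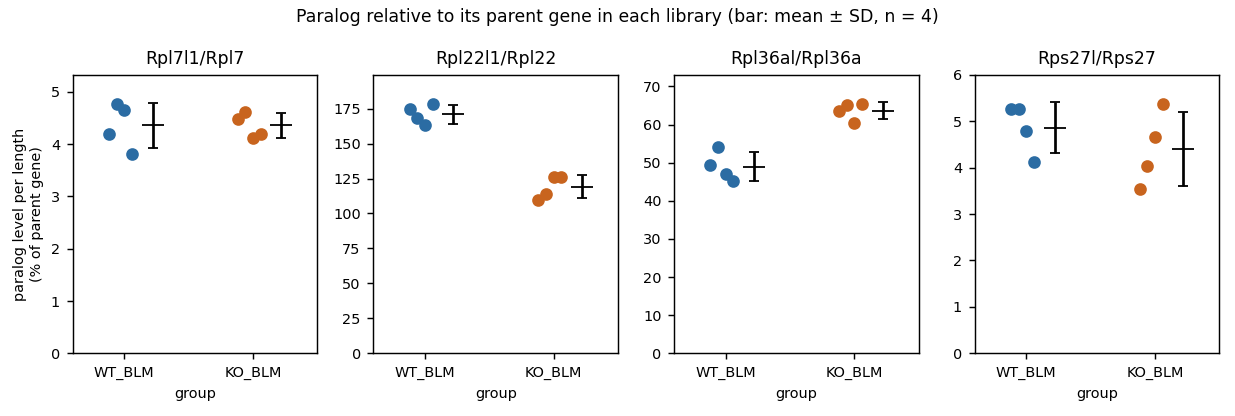
Level per length of each paralog as a percent of its parent gene, 1 point per library, with mean ± SD beside the points (n = 4). Rpl22l1 relative to Rpl22 is at 163% or more in WT_BLM and at 126% or less in KO_BLM, Rpl36al relative to Rpl36a is at 54.1% or less and 60.5% or more, and the other pairs overlap.

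Among core ribosomal proteins that the symbol rule leaves out, Rpsa and Rack1 fell and Fau did not pass. Rpsa, also a laminin receptor, was at 1231 ± 71.4 CPM in WT_BLM and 898 ± 72.3 CPM in KO_BLM (SD, n = 4), a log2 change of -0.46 ± 0.09 (SE; edgeR adjusted p = 0.00395). Rack1, a signalling scaffold on the small subunit, was at 914 ± 76.1 CPM in WT_BLM and 639 ± 69.7 CPM in KO_BLM (SD, n = 4), a log2 change of -0.52 ± 0.10 (SE; edgeR adjusted p = 0.00405). Fau, the source of Rps30, had -0.16 and did not pass (edgeR adjusted p = 0.191).

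Genes of translation with TOP mRNAs and genes that assemble ribosomes were lower as well. Of all tested genes 20.8% fell and 20.7% rose. Of 19 translation factors and other TOP genes, 11 fell (57.9%) and 1 rose, with a median log2 fold change of -0.31. Eef1b2, an exchange factor of elongation, fell by 0.32 on the log2 scale, Eif4b, a helper of the initiation helicase, by 0.30, and Pabpc1, the poly(A)-binding protein, by 0.35. Eif4a2, a variant of the initiation helicase, was the exception and rose from 200.1 to 413 CPM (log2 fold change 1.05, SE 0.12, edgeR adjusted p = 0.00025). Of 38 ribosome assembly genes, 25 fell (65.8%) and 0 rose, with a median of -0.33. Gnl3, the nucleolar GTPase nucleostemin, was at 39 ± 7.37 CPM in WT_BLM and 21.4 ± 1.64 CPM in KO_BLM (SD, n = 4), a log2 change of -0.87 ± 0.14 (SE; edgeR adjusted p = 0.00113). Nhp2, part of the enzyme that makes pseudouridine in rRNA, Rrp12, needed for export of both particles, and Eif6, which keeps new large subunits from joining, had log2 fold changes of -0.76, -0.71 and -0.59 (edgeR adjusted p = 0.00108, 0.00127 and 0.000431). With library totals the counts were 5 lower and 2 higher of the 19, and 14 lower and 3 higher of the 38. On that scale 2253 of all tested genes were lower and 3789 higher.

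Lists of regulators were read against the 20.8% of all tested genes called lower and 20.7% called higher. Of 22 genes of mTOR signalling and S6 kinases, 8 fell (36.4%) and 1 rose, with a median of -0.20, and with library totals 5 fell and 1 rose. With library totals 2253 of all tested genes fell and 3789 rose. Eif4ebp1, the repressor of cap-dependent initiation that mTOR switches off, was at 73 ± 5.17 CPM in WT_BLM and 46.1 ± 2.77 CPM in KO_BLM (SD, n = 4), a log2 change of -0.66 ± 0.08 (SE; edgeR adjusted p = 0.000302). Akt1, a kinase upstream of mTOR, and Rheb, its direct activator, fell by 0.59 and 0.36 on the log2 scale, and Rps6ka4, a stress-activated kinase, by 0.72. In the MYC family of 8, 3 fell (37.5%) and 1 rose, the same counts as with library totals. Myc, known to drive ribosome production, was at 62.5, 48, 47.8 and 74.2 CPM in WT_BLM and 12.8, 12.1, 14 and 18.2 CPM in KO_BLM (log2 fold change -2.03, SE 0.18, edgeR adjusted p = 4.86e-05), with no overlap. Mnt and Mxd4, which oppose Myc, fell by 0.35 and 0.50, and Mycl rose by 0.71 (edgeR adjusted p = 0.0456). The call for Mxd4 was lost without WT_BLM replicate 1 (0.0548 by edgeR) and that for Mycl without any 1 of WT_BLM replicates 1, 3 and 4 and KO_BLM replicates 1 and 2 (0.0525 to 0.136). Of 7 genes of ribosomal protein surveillance, Rnf10, a ubiquitin ligase of stalled small subunits, and Cdkn1a, the p53 target p21, fell by 0.42 and 0.45 on the log2 scale, and 5 did not pass (28.6% lower). The snoRNA host genes of the TOP class were not analysed here.

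The ribosomal proteins of mitochondria, made from nuclear genes but built into a separate ribosome, served as a comparison. Of 78 tested, 8 fell (10.3%, against 20.8% of all tested genes) and 4 rose, with a median log2 fold change of -0.08. With library totals the median turned to 0.01, and 5 were lower and 11 higher. On that scale the median of all tested genes was 0.09, with 2253 lower and 3789 higher. The cytosolic set had a median of -0.29 with TMM factors, and 55 of 84 fell. With library totals its median was -0.20, and 30 were lower. The difference between both sets was not tested.

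**Figure D5:**
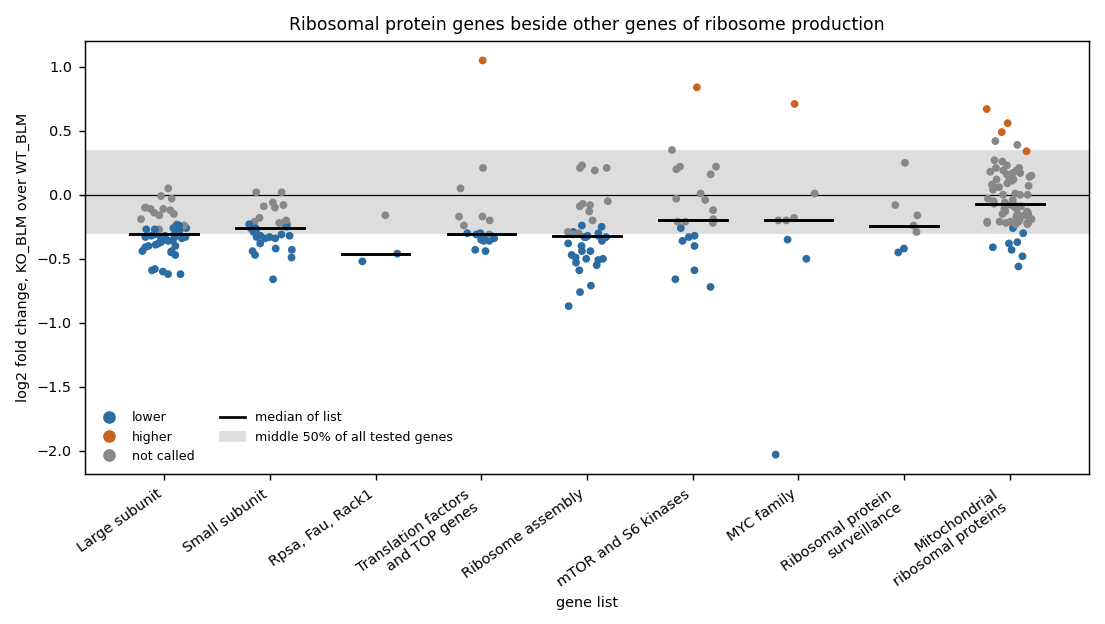
Log2 fold change of each gene, KO_BLM over WT_BLM, by list (1 point per tested gene, black bar at the list's median, grey band for the middle 50% of all tested genes). The lower edge of the band is at -0.30; the medians are -0.31 for the large subunit, -0.26 for the small and -0.33 for ribosome assembly, mitochondrial ribosomal proteins have -0.08, and Myc stands alone at -2.03.

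Levels per length largely kept their order between the groups. In FPKM, which divides counts by gene length and library total, core members in WT_BLM ranged from 55.6 for Rps15a to 1620 for Rplp1, with a median of 502. Rplp1 was at 1620 ± 89.6 FPKM in WT_BLM and 1540 ± 74.8 FPKM in KO_BLM, Rpl41 at 1581 ± 89.9 and 1350 ± 170 FPKM, and Rplp0 at 1094 ± 66.6 and 756 ± 65.2 FPKM (SD, n = 4). In the small subunit Rps14 was highest in WT_BLM, at 909.6 ± 84.2 FPKM, followed by Rps15, Rps27, Rps29 and Rps16, whose WT_BLM means of 879.5, 858, 852 and 825 FPKM lie within 1 SD of their neighbours. In KO_BLM Rps15 was highest, at 897 ± 48.0 FPKM, with Rps14 at 854 ± 48.6 FPKM. Across the 76 core genes the FPKM of both groups had a Spearman correlation of 0.981, a description over genes that share libraries and lengths. The deposited gene model of Rps15a spans 5136 bases, against a median of 792 for core genes, and a longer model gives a lower FPKM at the same count.

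Shared sequence and short length bear on these counts. Of the core genes, the median share of 50-base stretches found in no other gene's transcripts was 57.2%, from 13.3% to 100%. In the 48 genes with at least 50% unique sequence, 29 fell (60.4%) and 0 rose, with a median log2 fold change of -0.27. In the 28 below that, 23 fell (82.1%) and 0 rose, with a median of -0.33. Of all tested genes 20.8% fell. Rpl24 is 18.3% unique, Rps2 28.7%, Rpl12 51%, Rplp0 58.2%, Rpl32 and Rps25 73.9% and 73.8%, and Rpl4 and Rpl8 83.5% and 93.5%, all called lower. Core gene models had a median length of 792 bases, against 3511 for all tested genes. With a trend of fold change on length removed, 60 members were lower and 0 higher, where 3325 of all tested genes were lower and 2993 higher.

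The members lie on 19 chromosomes, and 84 of the 88 are listed in the KEGG ribosome pathway by the deposited annotation. Fold change had little relation over the core genes to length (Spearman -0.17) or to WT_BLM level (Spearman -0.173), both as descriptions.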

How the data were processed

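Lung RNA of 4 WT_BLM and 4 KO_BLM libraries was made into stranded, poly(A)-selected libraries, per the labels' protocols. The authors deposited whole-number counts per gene symbol and FPKM values. FPKM equalled the count divided by the column total and 1 length per gene, in 100% of values within 1e-06 of relative difference. Trimmomatic, HTSeq, Cufflinks, DESeq and mm10 are named in the submitters' processing notes, without version or role. Groups and replicate numbers came from the titles, and columns named PHT2_KO were matched to the knockout samples.

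Counts were tested with edgeR 4.0.16 in R 4.3.3 (TMM, filterByExpr with a minimum count of 10 and total of 15, robust quasi-likelihood fit) over 14746 genes, with Benjamini-Hochberg adjustment over all of them at 0.05. CPM are counts over TMM-scaled totals, "fell" and "rose" mean called, and percent changes come from the fitted fold change. Paralog ratios used CPM per length and an exact permutation test over 70 arrangements. The biological coefficient of variation was 16.6%. Alternatives were other scaling, filters, fits, tools (DESeq2 1.42.0, limma 3.58.1), FPKM on a log2 scale, and each library left out. The rule for named genes took all paralogs, the largest and smallest changes, the most abundant members and every called one in each subunit, and up to 4 genes of smallest p per pathway list. Members, lists and tests were chosen with earlier results of these data known, and Rpl32l, Rpl6l, Rpl37rt and Rps23rg1 were classed as copies after the files were read. Shared sequence was counted as 50-base stretches on GENCODE M21 transcripts, which matched 87 of 88 members. A gene of the fixed lists is not reported here.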

Additional observations from a re-analysis of the deposited data

Results flagged for a closer look

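In each group of 4 libraries, the highest or lowest library was checked for a gap to its neighbour above Dixon's critical value. Chance flags about 1 in 20 groups, and 14 of 222 groups of members and named genes had such a library. For 7 members KO_BLM replicate 3 stood above the other knockout libraries: Rpl10a at 387.7 CPM, Rpl13a at 809.6 CPM, Rpl29 at 242 CPM, Rpl32 at 334.9 CPM, Rpl7a at 304.3 CPM, Rplp0 at 1115 CPM and Rps14 at 528.7 CPM. The same library stood below the others for Eif4a2, at 366.3 CPM. Leaving it out gave 56 members called lower and 0 higher, against 55 and 0 with all libraries. Of all tested genes 2778 were lower and 2758 higher without it. WT_BLM replicate 4 stood above the other wild-type libraries for Rpl36, at 256.9 CPM, for Rps25, at 460.7 CPM, and for Eif4ebp1, at 80.71 CPM. KO_BLM replicate 4 was apart for Rpl10, lowest at 531.2 CPM, for Rps19bp1, highest at 16.32 CPM, and for Rps6ka4, at 58.87 CPM.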

How the results depend on the processing

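No setting called a member higher, and no called member changed sign in any of 22 other settings, but 18 of the 55 were called in all of them. These include Rps2, Rplp0, Rpl12, Rpl10a, Rpl29, Rpl32, Rps6, Rps12, Rps18, Rps25, Rpl35, Rpl36a and Rpl22l1. With library totals, 22 large and 8 small subunit genes were lower. On log2(FPKM + 1) without a filter these counts were 14 and 6, and on log2(FPKM + 0.1) 13 and 5. On log2(FPKM + 1) with at least 1 FPKM in 4 libraries they were 22 and 8. Of all genes, 2253, 2148, 2194 and 2005 were lower in these settings, in the same order. Leaving out each library in turn gave 18 to 36 large and 9 to 20 small subunit genes lower, the lowest without KO_BLM replicate 2. Of all genes, 2178 to 2896 were then lower. With 3 against 4 libraries the exact test of a paralog ratio cannot pass 0.05 after adjustment.

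Of the 29 uncalled members 7 changed sign, all near 0 (log2 scale). Rpl21 was at 0.08 with library totals, 0.03 with limma-voom and 0.07, 0.08 and 0.07 in the FPKM settings, and from -0.07 to 0.05 with libraries left out. Rpl36al was at 0.06 and Rps15 at 0.03 with library totals and in all FPKM settings, and Rpl36al from -0.06 to 0.0062 with libraries left out. Rps27 was at 0.0044 in the FPKM settings and from -0.17 to 0.03 with libraries left out. Rps27rt was at 0.02 with library totals, 0.05 with limma-voom, 0.04 in the FPKM settings and from -0.17 to 0.12 with libraries left out. Rps19bp1 ranged from -0.05 to 0.05, Rps21 from -0.01 to 0.03 and the log2 change of the Rpl7l1 to Rpl7 ratio from -0.06 to 0.05 with libraries left out. The cause was not tested.

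With the replicate number as a block, 2824 of all genes were lower and 2878 higher, and 30 large and 16 small subunit genes were lower. Same-numbered libraries deviated together little (correlations 0.119, -0.0184, -0.00088 and -0.0788), so the numbers were not taken as pairs, and not every library correlated best with its own number. Counts of reads limit the untested members, at 1 to 11 per library. Sharing of reads with pseudogenes and copies, and cell makeup, may limit the rest, and their part was not tested.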

Other observations

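The rows that the symbol rule leaves out gave these values. Of 8 pseudogene symbols in the table, 4 were tested, 0 were called by edgeR, and their median log2 fold change was -0.42. All pseudogene rows together held 0.0745% to 0.102% as many counts as the members in each library. Of the 10 Rps6k kinase genes, 2 fell (20%, against 20.8% of all tested genes) and 1 rose, with a median of -0.01.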
